A study of Homo sapiens with 16 samples.

Results

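The genes described here are 10 regulators of apoptosis of the BCL2 family, *BCL2*, *BCL2L1*, *MCL1*, *BCL2L12*, *BAK1*, *BCL2L11*, *BID*, *BIK*, *BMF* and *BAD*. They were chosen by name, and all 10 were found among the 33937 genes of the deposited count matrix. The cells, of the established human colorectal carcinoma line HCT116, carried a scrambled control hairpin (SCR) or a short hairpin RNA against the histone acetyltransferase gene *NAA40* (NAA40-KD), which doxycycline (dox) is meant to switch on. Cultures received dox (1 μg/ml, 96 h) or none. RNA was sequenced from 16 libraries, 4 in each of the groups labelled SCR (−dox), NAA40-KD (−dox), SCR (+dox) and NAA40-KD (+dox). The labels name a single knockdown line, so effects of the hairpin on other transcripts and effects of *NAA40* cannot be told apart. They do not say whether the lines are clones, nor that the 4 libraries of a group are separate cultures, although the paper's methods speak of independent RNA samples. If they are not, the p-values below measure technical spread.

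Proteins of the BCL2 family decide whether the outer mitochondrial membrane is opened, the step that releases cytochrome c and starts the caspase cascade of intrinsic apoptosis. The effectors BAK (encoded by *BAK1*) and BAX form the pore, anti-apoptotic members such as BCL2, BCL-XL (*BCL2L1*) and MCL1 hold the effectors and their activators in check, and BH3-only proteins such as BIM (*BCL2L11*), BID, BIK, BMF and BAD relay stress signals by binding the guardians or the effectors. In colorectal carcinoma cells, BCL-XL and MCL1 are known as survival factors. Much of the regulation of this family lies in splicing, protein turnover and cleavage, which counts of reads per gene do not measure. In particular, the long and short forms of *BCL2L1* and *MCL1*, which act in opposite ways, are summed in their counts.

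The members lie on 9 chromosomes of the human build GRCh38 (GENCODE release 29), and *BID* and *BIK* share chromosome 22. *BMF* (ENSG00000104081) spans chromosome 15 from 40087890 to 40108892 on the − strand, *BCL2L1* (ENSG00000171552) chromosome 20 from 31664452 to 31723989 on the − strand, and *BAK1* (ENSG00000030110) chromosome 6 from 33572547 to 33580293 on the − strand. *BIK* (ENSG00000100290) spans chromosome 22 from 43110748 to 43129712 (+ strand), and *MCL1* (ENSG00000143384) chromosome 1 from 150574551 to 150579738 (− strand). The strand setting of the read counting is not given, so reads in exons shared with another gene may be uncertain. This concerns 43% of the exon bases of *BCL2L1*, shared with the antisense gene *ABALON*, 33.1% of those of *BCL2L12* (with *IRF3*), 23.7% of those of *BAD* (with *GPR137*), 10.9% of those of *BCL2L11* (with *MIR4435-2HG*), 8.46% of those of *BMF* (with *BMF-AS1*) and 4.11% of those of *BAK1* (with *GGNBP1*). The exons of *BCL2*, *BID* and *BIK* overlap no other annotated exon.

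*BMF*, *BAK1* and *BCL2L1* had the highest fold changes of the members under the label NAA40-KD (−dox), as described below. The 250 bases before their start sites, which hold sequence through which transcription of a gene can be controlled, are therefore shown (RefSeq, build GRCh38.p14, 5′ to 3′ on the strand of the gene). Capitals mark a GC box, spelled GGGCGG, and likewise a CCAAT box and the core of a TATA box, which is spelled TATAAA. Each was read on both strands, so that a match on the other strand appears as its reverse complement. The windows are chr15:40108880-40109129 for *BMF*, chr6:33580277-33580526 for *BAK1* and chr20:31723964-31724213 for *BCL2L1*, each on the − strand.
BMF: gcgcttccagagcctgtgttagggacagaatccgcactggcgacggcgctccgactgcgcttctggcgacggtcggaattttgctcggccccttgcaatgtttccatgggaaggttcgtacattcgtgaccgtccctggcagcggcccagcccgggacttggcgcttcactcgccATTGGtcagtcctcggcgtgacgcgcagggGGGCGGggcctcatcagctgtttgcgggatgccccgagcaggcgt
BAK1: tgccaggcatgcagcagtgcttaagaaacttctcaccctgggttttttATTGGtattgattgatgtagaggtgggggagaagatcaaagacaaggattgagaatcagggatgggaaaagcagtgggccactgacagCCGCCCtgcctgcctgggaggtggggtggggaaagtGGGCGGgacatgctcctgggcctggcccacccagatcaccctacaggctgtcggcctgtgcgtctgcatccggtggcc
BCL2L1: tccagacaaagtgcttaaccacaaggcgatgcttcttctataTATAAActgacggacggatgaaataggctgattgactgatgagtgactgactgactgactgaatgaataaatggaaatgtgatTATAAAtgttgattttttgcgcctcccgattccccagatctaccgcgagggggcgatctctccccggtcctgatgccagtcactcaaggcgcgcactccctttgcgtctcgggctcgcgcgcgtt
The *BMF* window holds 1 GC box, 45 bases before the start, and 1 CCAAT box, 75 bases before it. The *BAK1* window holds 2 GC boxes, at 114 and 78 bases, and 1 CCAAT box at 202 bases. The *BCL2L1* window holds neither of these letters and has TATAAA 208 and 125 bases before the start. Of the 35116 promoter entries searched in the same way, 42.6% hold GGGCGG, 32% hold CCAAT and 10.7% hold TATAAA, so these matches are common and are given as a description only.

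The targeted gene did not follow the labels. *NAA40* stood at 12.6, 11.6, 9.27 and 13.8 CPM (read counts relative to the library size as scaled by the TMM method) in replicates 1 to 4 labelled NAA40-KD (−dox), and at 34.5, 25.9, 29.1 and 28.2 CPM in those labelled SCR (−dox). In the libraries labelled NAA40-KD (+dox) it was 31.5, 29.3, 28.7 and 31.9 CPM, against 26.0, 28.4, 26.2 and 28.8 CPM in those labelled SCR (+dox). *NAA40* was thus low in the knockdown libraries labelled as without dox, and not in those labelled as dox-treated. The short sample names ending in wDox can be read as with or without dox, so every group is called here by its label and every direction below rests on those labels. Depth was 11065606 to 13855486 counts per library. Of 10 markers of colorectal epithelium 7 were above 1 CPM in each group, while *CDX1*, *VIL1* and *LGALS4* stayed at or under 1 CPM in all libraries, and all 5 leukocyte markers stayed at or under 1 CPM. Of 6 markers of fibroblasts and endothelium 2 or 3 per group exceeded 1 CPM in a library, and *COL1A2*, *DCN* and *PECAM1* stayed at or under 1 CPM. *COL1A1* was well above it, at 56.7 to 92.2 CPM in SCR (−dox) and 67.0 to 195 CPM in NAA40-KD (−dox). Summed over its markers, the epithelial list was at 3818 to 4882 CPM in SCR (−dox) and 5138 to 11096 CPM in NAA40-KD (−dox), and the fibroblast and endothelial list at 58.5 to 94.2 and 68.9 to 199 CPM. Without replicate 4 of NAA40-KD (−dox), described next, the upper ends in that group were 6043 and 83.2 CPM. *KRT20*, named after its value was seen as the epithelial marker called between these groups with all 8 libraries, went the other way (log2 fold change −1.67, adjusted p = 0.00342, edgeR's quasi-likelihood test). Without replicate 4 of NAA40-KD (−dox) it was again called lower (−1.72), whereas *KRT8* (0.49), *KRT18* (0.37) and *CDH1* (0.34) were called higher. *EPCAM* (0.10), *KRT19* (0.20) and *CDX2* (−0.23) did not pass in that fit. The mean of *KRT20* was 1.86 CPM in NAA40-KD (+dox) against 6.60 CPM in SCR (+dox), so it was lower in NAA40-KD under both labels. The part of these differences in the results below was not tested. NAA40-KD (−dox) replicate 4 stood apart from its group. The ratio of chi-square to degrees of freedom between it and its group mates was 128 to 140, against 1.74 to 40.5 for the 21 other pairs. Its genes at or above a GC content of 56.9% were above the mean of the other 3 replicates by a median of 1.04 on the log2 scale, and those at or below 42.2% fell by 1.12. Values from fits without this library are therefore given beside those with it.

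Levels of different members were compared per kb of exon, because a longer transcript gives more reads. In the libraries labelled SCR (−dox), *MCL1* was the most abundant member at 85.1 ± 5.64 CPM per kb (SD, n = 4) and *BCL2L1* followed at 38.1 ± 4.46 CPM per kb (SD, n = 4). *BCL2L12*, an atypical relative whose protein also acts in the nucleus, and *BIK* came next at 18.9 ± 1.24 and 17.0 ± 2.59 CPM per kb (SD, n = 4), and the libraries of these neighbours overlapped. *BAK1* and *BID* were at 9.27 ± 1.01 and 8.01 ± 0.673 CPM per kb (SD, n = 4), again with overlapping libraries. The length used was the union of annotated exons, 2212 bases for *BAK1* and 4446 for *BID*. The longest transcripts of these genes have 2212 and 2495 bases, so the order of members may differ with another length. *BCL2L11* and *BAD* were at 4.99 ± 0.316 and 4.06 ± 0.358 CPM per kb (SD, n = 4). *BMF* was at 0.426 ± 0.0697 CPM per kb (SD, n = 4) and *BCL2*, the founding member of the family, was lowest at 0.105 ± 0.0295 CPM per kb (SD, n = 4). *BCL2* had only 2 to 23 counts per library over all groups, and counting error limits what can be said of it.

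**Figure D1:**
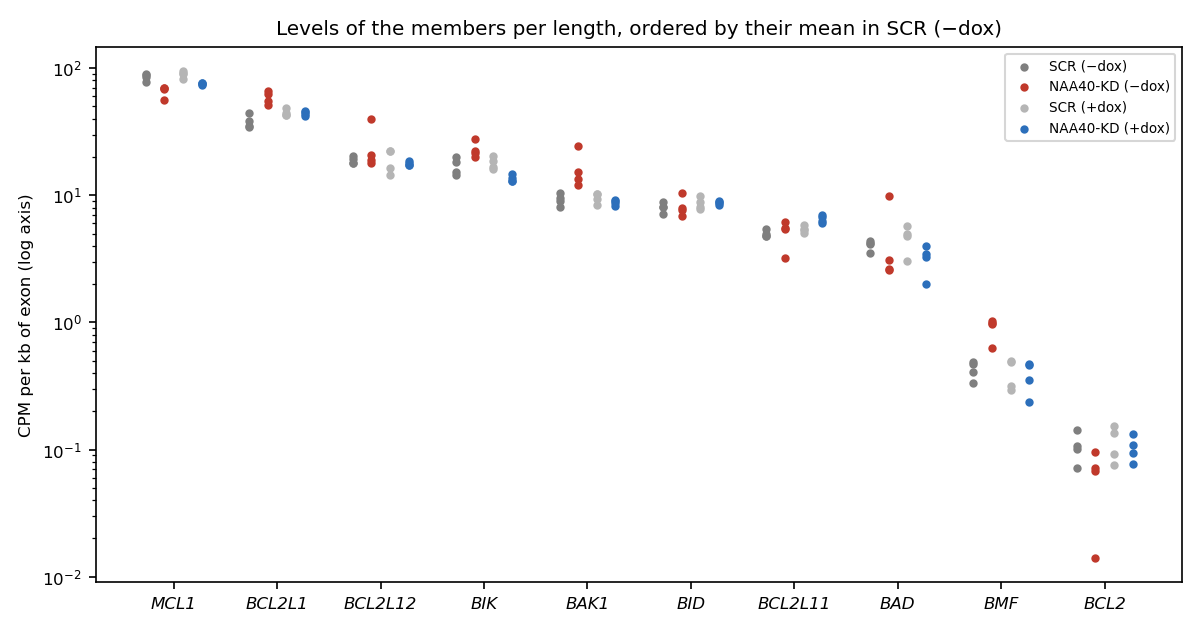
Level per length (CPM per kb of exon, log axis) of the 10 members in each of the 16 libraries, coloured by labelled group, with members ordered by their mean in SCR (−dox). *MCL1* and *BCL2L1* lie above and *BMF* and *BCL2* below the other members in every group, and the *MCL1* and *BCL2L1* libraries overlap in NAA40-KD (−dox) through replicate 4 of that group.

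By group means over 4 libraries the order of these levels was the same in every group but NAA40-KD (+dox), where *BID* and *BAK1* changed places at 8.75 CPM per kb each. In NAA40-KD (−dox) this order rested on replicate 4, without which *BIK*, at 21.4 ± 1.24 CPM per kb, came before *BCL2L12*, at 19.2 ± 1.40 CPM per kb (SD, n = 3), with overlapping libraries. *MCL1* was the highest and *BCL2* the lowest member by group mean in all 4 groups. The libraries of *MCL1* and *BCL2L1* were separate in SCR (−dox), SCR (+dox) and NAA40-KD (+dox) and overlapped in NAA40-KD (−dox), where the levels per length were 66.2 ± 6.77 for *MCL1* and 59.0 ± 7.0 for *BCL2L1* (CPM per kb, SD, n = 4). Without replicate 4 they were 69.5 ± 0.869 and 56.5 ± 5.91 CPM per kb (SD, n = 3) and did not overlap. Summed per library over *BCL2*, *BCL2L1* and *MCL1*, the level was 125 ± 5.36 CPM per kb in NAA40-KD (−dox) and 123 ± 5.33 CPM per kb in SCR (−dox) (SD, n = 4), with overlapping libraries. The sum over the 5 BH3-only members was 41.8 ± 7.12 CPM per kb in NAA40-KD (−dox) and 34.5 ± 3.08 CPM per kb in SCR (−dox) (SD, n = 4), also with overlapping libraries. Without replicate 4 the NAA40-KD (−dox) sums were 126 ± 6.22 and 38.2 ± 1.37 CPM per kb (SD, n = 3). These sums give a level of transcripts and say nothing of the ratio of the proteins.

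The first comparison, NAA40-KD (−dox) against SCR (−dox), is the one between the lines in which *NAA40* differed. Its log2 fold change was −1.31 (adjusted p = 0.00521, edgeR's quasi-likelihood test), or −1.40 without NAA40-KD (−dox) replicate 4. *BMF* and *BCL2L1* were higher in the libraries labelled NAA40-KD (−dox), by 2.13-fold and 1.56-fold, so that 1 BH3-only gene and 1 anti-apoptotic gene rose side by side. A gene was called where its p, adjusted over the whole table, was under 0.05. Of the 10 members, all of which passed the filter on low counts, 2 were called higher and 0 lower. In bulk RNA, fewer cells that express a gene and less of its RNA per cell cannot be told apart. Among all 13903 genes tested, 2.88% were called higher and 3.54% lower, in all 6.42%. The median log2 fold change was 0.28 over the members and 0.04 over all genes tested.

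*BMF* encodes a BH3-only protein that is held on the cytoskeleton in healthy cells. It was measured at 5.37, 5.25, 3.43 and 5.60 CPM in replicates 1 to 4 of NAA40-KD (−dox) and at 2.55, 2.67, 2.22 and 1.83 CPM in those of SCR (−dox). Every library of the first group lay above every library of the second, although the counts behind these values were only 47 to 72 and 24 to 30 per library. Overlap of libraries was examined for the listed genes only. Without the share over all genes it is a description, here and below. In log2 terms the difference was 1.09 (SE 0.23, adjusted p = 0.0253, edgeR's quasi-likelihood test). It was 1.01 without NAA40-KD (−dox) replicate 4 (adjusted p = 0.0031, edgeR; 0.00128 to 0.106 over the 16 alternatives run).

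*BCL2L1* encodes BCL-XL, which binds both effectors and BH3-only proteins. Its level was 182, 171, 209 and 221 CPM in NAA40-KD (−dox) and 127, 147, 117 and 114 CPM in SCR (−dox). The groups did not overlap, and NAA40-KD (−dox) replicate 4 was the highest library. On the log2 scale the groups differed by 0.64 (SE 0.15, adjusted p = 0.0383, edgeR) with all 8 libraries. Without replicate 4 it was 0.57 (SE 0.10, adjusted p = 0.000447, edgeR; 0.000447 to 0.169 over the 16 alternatives). Leaving out any 1 of the 4 SCR (−dox) libraries, or NAA40-KD (−dox) replicate 1 or 2, left 0 members called, and leaving out NAA40-KD (−dox) replicate 3 left 1, *BMF*. The share of all genes called in these fits is not given here. The lost calls can therefore not be read as particular to the members. Over all 8 fits that leave out 1 library the log2 fold changes ran from 0.57 to 0.72 for *BCL2L1* and from 0.99 to 1.24 for *BMF*.

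*BAK1*, the effector among the members, stood at 29.6, 26.7, 33.7 and 53.6 CPM in NAA40-KD (−dox) and at 19.8, 21.2, 17.8 and 23.1 CPM in SCR (−dox). All libraries of the first group lay above those of the second, with replicate 4 far above its group mates. The log2 fold change of 0.82 (SE 0.24) did not pass the test (adjusted p = 0.0707, edgeR). Without replicate 4 it was 0.55 (SE 0.12) and passed (adjusted p = 0.00197, edgeR; 0.000938 to 0.186 over the 16 alternatives). *BIK*, whose protein acts largely at the endoplasmic reticulum, was at 21.4, 19.1, 20.7 and 26.5 CPM against 14.5, 17.4, 13.8 and 19.1 CPM, where the lowest library of the first group and the highest of the second were both at 19.1 CPM. Its log2 fold change of 0.44 (SE 0.18) did not pass (adjusted p = 0.169, edgeR), nor did that of 0.33 (SE 0.13, adjusted p = 0.0552, edgeR) without replicate 4.

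*MCL1*, the short-lived guardian, was at 299.6, 306, 306 and 245 CPM in NAA40-KD (−dox) and at 339, 369, 387 and 394 CPM in SCR (−dox). Every NAA40-KD (−dox) library lay below every SCR (−dox) library, and replicate 4 was the lowest. The log2 fold change of −0.36 (SE 0.13) did not pass the test (adjusted p = 0.136, edgeR). Without replicate 4 it was −0.30 (SE 0.084) and passed (adjusted p = 0.0115, edgeR; 0.0115 to 0.390 over the 16 alternatives).

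*BAD*, which binds anti-apoptotic proteins when it is not phosphorylated, was at 4.40, 4.49, 5.33 and 16.9 CPM in NAA40-KD (−dox) and at 6.05, 7.21, 7.42 and 7.08 CPM in SCR (−dox). Replicates 1 to 3 lay below all SCR (−dox) libraries and replicate 4 above them. The sign of its log2 fold change turned with this library, from 0.17 (SE 0.43, adjusted p = 0.846, edgeR) with it to −0.55 (SE 0.16, adjusted p = 0.015, edgeR; 0.015 to 0.938 over the 16 alternatives) without it. *BCL2L12* was at 42.2, 39.6, 45.8 and 88.7 CPM against 39.4, 45.1, 39.6 and 43.1 CPM, so that replicates 1 to 3 lay within or next to the range of SCR (−dox). The log2 difference was 0.38 (SE 0.26, adjusted p = 0.414, edgeR) with replicate 4 and 0.02 (SE 0.094, adjusted p = 0.882, edgeR; 0.226 to 0.882 over the 16 alternatives) without it.

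*BCL2L11* encodes BIM, a potent activator of the effectors. It was at 36.1, 41.2, 36.5 and 21.2 CPM in NAA40-KD (−dox) and 31.9, 31.7, 36.3 and 33.0 CPM in SCR (−dox), with replicate 4 the lowest of the 8 libraries. *BID*, which caspase-8 cleaves to link death receptors with mitochondria, was at 35.2, 30.7, 34.3 and 46.2 CPM against 35.9, 35.7, 31.7 and 39.0 CPM. *BCL2* was at 1.12, 0.84, 0.80 and 0.16 CPM against 1.19, 1.25, 1.68 and 0.84 CPM. The groups overlapped for all of these, and their log2 fold changes of 0.03, 0.05 and −0.74 did not pass the test (adjusted p = 0.954, 0.894 and 0.340, edgeR). Without replicate 4 they were 0.19, −0.10 and −0.43 and did not pass either (adjusted p = 0.151, 0.490 and 0.341, edgeR).

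Without NAA40-KD (−dox) replicate 4, 3 members were called higher (*BMF*, *BCL2L1* and *BAK1*) and 2 lower (*MCL1* and *BAD*). In this fit of 4 libraries against 3, 17.1% of the 13751 genes tested were called higher and 19.4% lower. The 3 and 2 calls of 10 members therefore stand beside sizeable shares of all genes. The median log2 fold change of the members was 0.10.

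**Figure D2:**
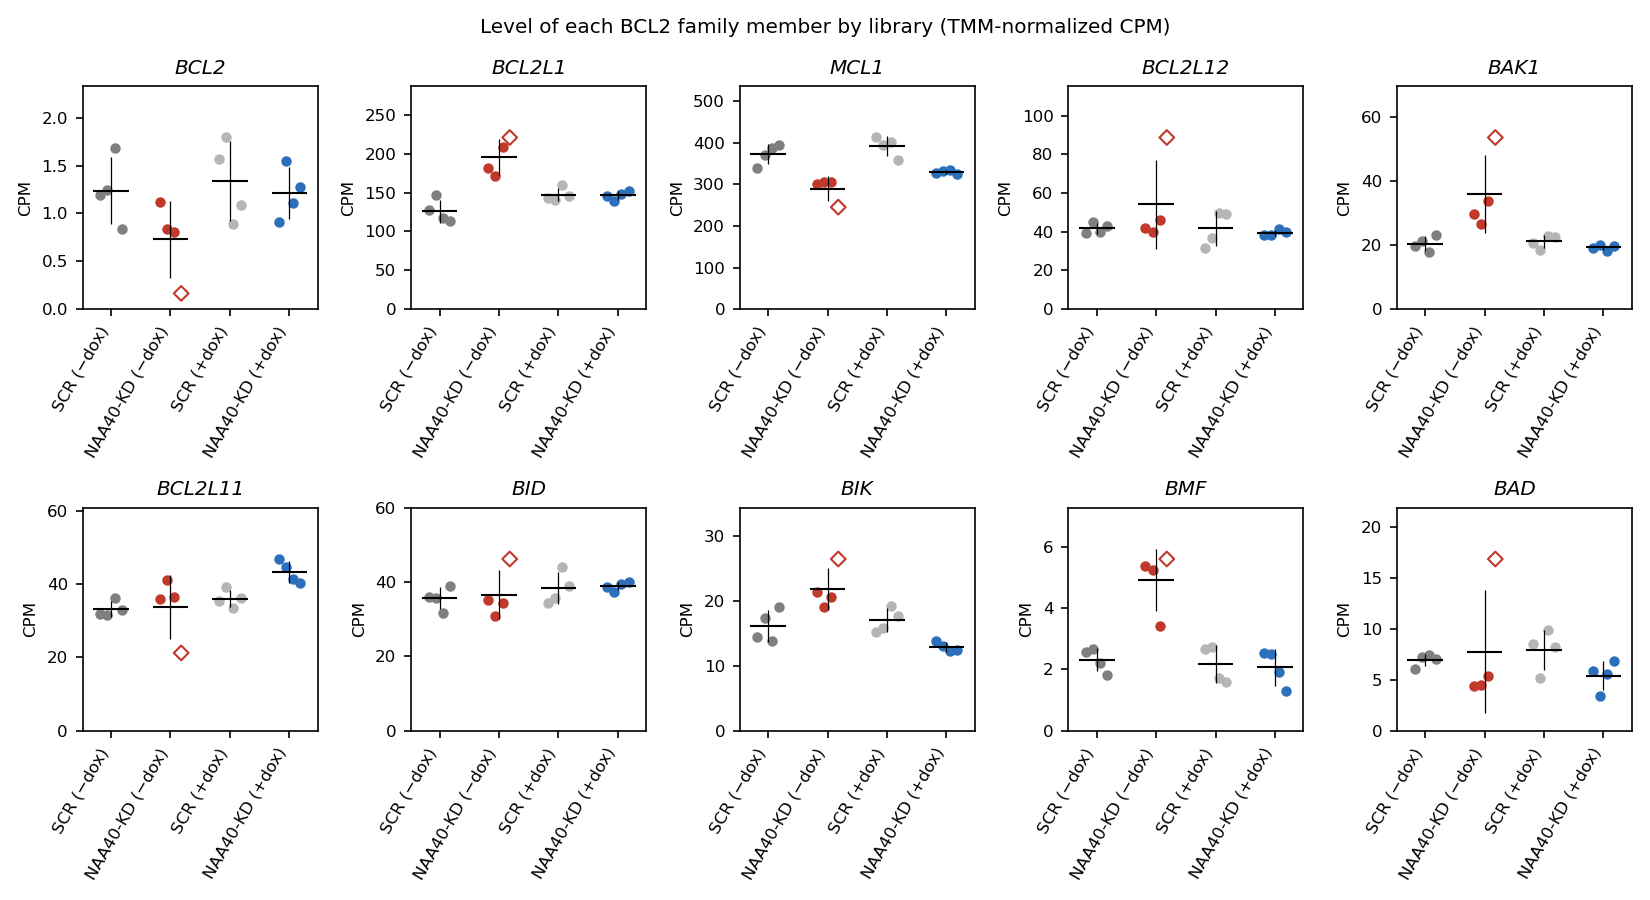
Level of each member (CPM, each panel with its own axis from 0) in the 4 labelled groups. Points are libraries, the open diamond is NAA40-KD (−dox) replicate 4, horizontal lines are means and vertical lines are SD (n = 4). The *BMF* libraries of NAA40-KD (−dox) lie between 3.43 and 5.60 CPM and all others between 1.28 and 2.73 CPM, while the diamond sits far above its group for *BAD*, *BCL2L12* and *BAK1* and below it for *BCL2L11*, *MCL1* and *BCL2*.

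NAA40-KD (−dox) replicate 4 differed from the mean of replicates 1 to 3 in opposite directions for different members. On the log2 CPM scale it was higher by 1.80 for *BAD*, 1.06 for *BCL2L12* and 0.84 for *BAK1*, whose longest transcripts hold 66.3%, 59.1% and 58.8% GC. It fell by 1.74 for *BCL2*, 0.83 for *BCL2L11* and 0.31 for *MCL1*, with 45.6%, 45.7% and 45.1% GC. *BMF* and *BCL2L1*, with 54.8% and 56.9% GC, were higher by 0.28 and 0.24. *BID* and *BIK*, with 49.7% and 56.0% GC, were higher by 0.47 and 0.38. The deviation of this library thus differed between the members with the lowest and the highest GC content, without a steady rise from 49.7% to 56.9%. The part of GC content in the member values was not tested. With an offset for GC content, an alternative chosen after seeing the data, *BMF*, *BCL2L1*, *BAK1* and *MCL1* were called between the lines labelled (−dox), in a fit that called 36.0% of all genes tested.

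**Figure D3:**
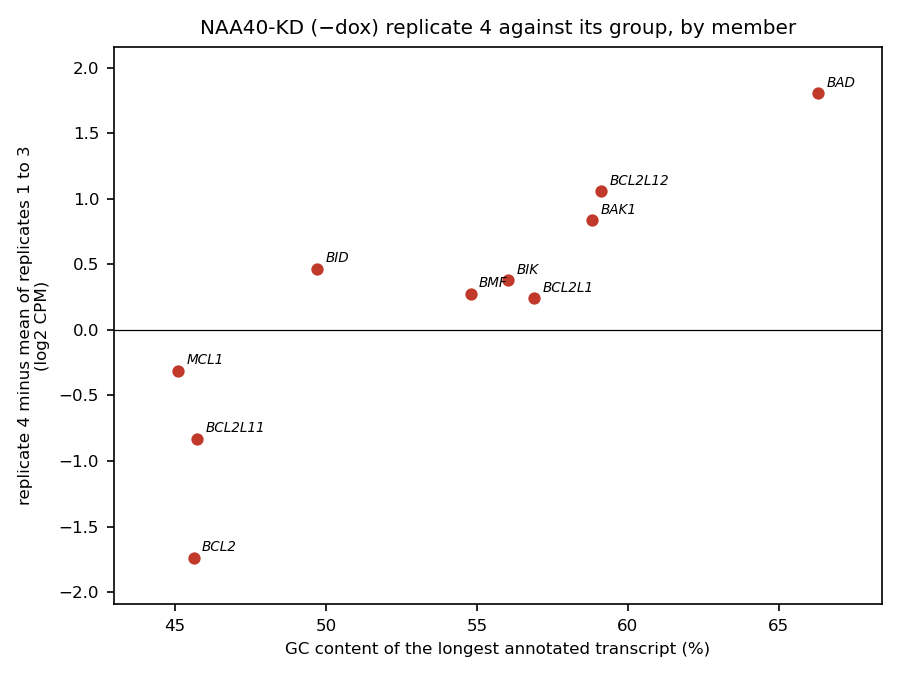
Difference of NAA40-KD (−dox) replicate 4 from the mean of replicates 1 to 3 (log2 CPM) against the GC content of the longest annotated transcript (percent), 1 point per member. The 3 members with the lowest GC content (45.1% to 45.7%) lie below 0 and *BAD*, with the highest (66.3%), lies at 1.80.

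The second comparison, NAA40-KD (+dox) against SCR (+dox), sets the lines side by side where the labels describe both as dox-treated, but *NAA40* itself did not differ in it (log2 fold change 0.15, adjusted p = 0.281, edgeR). *BCL2L11* was 1.20-fold higher under the label NAA40-KD (+dox), whereas *MCL1* and *BIK* were lower, at 0.841 and 0.756 of the level in SCR (+dox). Of the 10 members 1 was called higher and 2 lower. Among all 13869 genes tested, 10.9% were called higher and 13.7% lower, in all 24.5%, so that the members' share was near that of all genes. The members' median log2 fold change was −0.10, and that of all genes tested was close to 0.

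*BIK* was at 13.9, 13.1, 12.3 and 12.4 CPM in NAA40-KD (+dox) and at 15.3, 15.8, 19.3 and 17.7 CPM in SCR (+dox), with no overlap. The log2 difference was −0.40 (SE 0.11, adjusted p = 0.0156, edgeR). *MCL1* was at 328, 331, 335 and 324 CPM against 412, 395, 402 and 357 CPM, again without overlap. The 4 NAA40-KD (+dox) libraries lay within a narrow range, and the log2 difference was −0.25 (SE 0.080, adjusted p = 0.0285, edgeR). *BCL2L11* was at 46.9, 44.7, 41.6 and 40.3 CPM in NAA40-KD (+dox) and at 35.3, 39.2, 33.5 and 36.2 CPM in SCR (+dox). These groups did not overlap either, and the log2 fold change of 0.26 (SE 0.095) was just past the threshold (adjusted p = 0.0485, edgeR).

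These calls were close to the threshold and depended on single libraries. That of *BIK* was lost without NAA40-KD (+dox) replicate 3 or 4, and that of *MCL1* without SCR (+dox) replicate 1 or any NAA40-KD (+dox) library. That of *BCL2L11* was lost without any 1 library other than SCR (+dox) replicate 2, and the number of members called ran from 0 to 4. The share of all genes called in these fits without 1 library is not given here. The log2 fold changes themselves stayed between −0.45 and −0.34 for *BIK*, −0.29 and −0.22 for *MCL1* and 0.23 and 0.31 for *BCL2L11*. *BAD* was at 5.91, 3.40, 5.54 and 6.83 CPM against 8.50, 5.23, 9.87 and 8.21 CPM, with overlapping groups and a log2 fold change of −0.56 (SE 0.21) that did not pass (adjusted p = 0.0559, edgeR).

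*BMF* and *BCL2L1*, the members called in the libraries labelled (−dox), did not pass in this comparison. *BMF* was at 2.55, 2.52, 1.92 and 1.28 CPM in NAA40-KD (+dox) and at 2.68, 2.73, 1.71 and 1.60 CPM in SCR (+dox), and the log2 difference was −0.08 (SE 0.26, adjusted p = 0.849, edgeR). *BCL2L1* was at 145, 139, 149 and 152 CPM against 143, 141, 159.6 and 146 CPM, and the log2 difference was −0.01 (SE 0.081, adjusted p = 0.940, edgeR). The libraries of the compared groups overlapped for both genes. For *BAK1*, *BID*, *BCL2L12* and *BCL2* the log2 fold changes of −0.13, 0.02, −0.08 and −0.12 did not pass the test either.

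**Figure D4:**
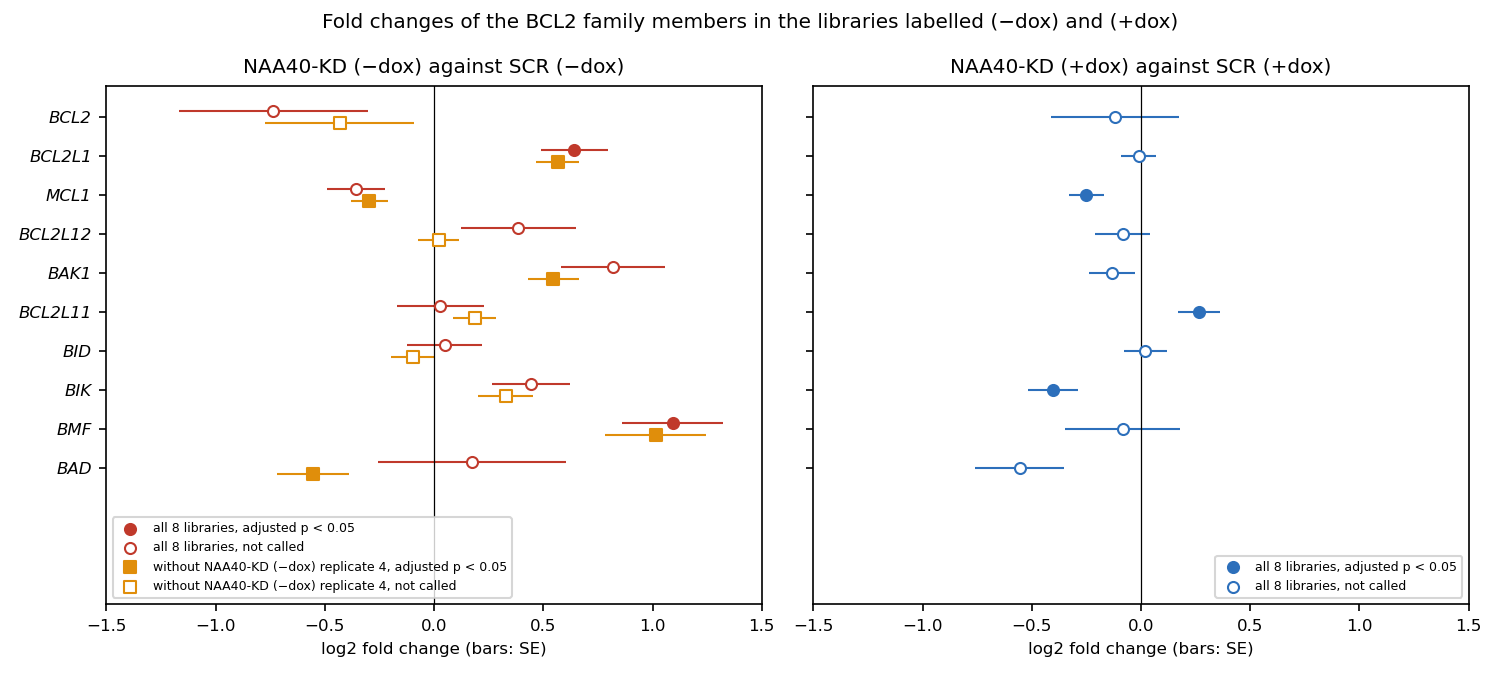
Log2 fold change of each member with its SE (bars) from edgeR, on the left for the libraries labelled (−dox) with all 8 libraries (circles) and without NAA40-KD (−dox) replicate 4 (squares), on the right for the libraries labelled (+dox). Filled symbols passed an adjusted p of 0.05. *BMF* and *BCL2L1* lie to the right of 0 in both fits on the left and at −0.08 and −0.01 on the right, and *BAD* changes side on the left when the library is left out.

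Within the knockdown line, NAA40-KD (+dox) against NAA40-KD (−dox), *BMF*, *BAK1* and *BIK* were lower in the libraries labelled (+dox), which had the higher *NAA40* level (log2 fold change 1.36, adjusted p = 0.0024, edgeR, and 1.44 without NAA40-KD (−dox) replicate 4). This comparison shares its libraries with both comparisons above. Of the 10 members, 0 were called higher and 3 lower, while 4.71% of the 13844 genes tested were called higher and 5.50% lower, in all 10.2%. The 3 called members encode pro-apoptotic proteins, 1 effector and 2 of the BH3-only type. Most of the 10 members are of these types, 1 effector and 5 BH3-only. The members' median log2 fold change was −0.44, against −0.04 over all genes tested.

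The log2 fold change of *BMF* was −1.26 (SE 0.26, adjusted p = 0.0193, edgeR), with every NAA40-KD (+dox) library, at most 2.55 CPM, below every NAA40-KD (−dox) library, at least 3.43 CPM. That of *BAK1* was −0.90 (SE 0.22, adjusted p = 0.0356, edgeR), and its libraries labelled (+dox), at 19.2, 20.1, 18.2 and 19.8 CPM, all lay below the 26.7 CPM of the lowest library labelled (−dox). That of *BIK* was −0.77 (SE 0.15, adjusted p = 0.0133, edgeR), with 13.9 CPM as the highest value labelled (+dox) and 19.1 CPM as the lowest labelled (−dox). *BCL2L1* did not overlap between the groups either, but its log2 fold change of −0.42 (SE 0.13) did not pass (adjusted p = 0.0654, edgeR).

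Without NAA40-KD (−dox) replicate 4, 7 members were called in this comparison, in a fit where 25.8% of the 13700 genes tested were called higher and 26.6% lower. *BMF* (−1.20), *BAK1* (−0.64), *BIK* (−0.67) and *BCL2L1* (−0.36) were lower and *BID* (0.22), *BCL2L11* (0.19) and *MCL1* (0.11) higher on the log2 scale, with adjusted p-values up to 0.0406 (edgeR). The members' median log2 fold change was then 0.0030. Leaving out other libraries left 0 to 2 members called, and the share of all genes called in those fits is not given here. The call of *BAK1* was lost without any NAA40-KD (+dox) library or without NAA40-KD (−dox) replicate 1 or 3, that of *BIK* without NAA40-KD (+dox) replicate 2, 3 or 4, and that of *BMF* without NAA40-KD (+dox) replicate 3 or 4 or NAA40-KD (−dox) replicate 1 or 2. The log2 fold changes of *BMF* stayed between −1.40 and −1.08, those of *BAK1* between −1.02 and −0.64 and those of *BIK* between −0.83 and −0.67.

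In the control line, SCR (+dox) against SCR (−dox), which carries no hairpin against *NAA40*, 0 of the 10 members and 0% of the 13882 genes tested were called by edgeR. DESeq2 and limma-voom also called 0 members. At an unadjusted p under 0.05 there were 271 genes, and no member was among them. The members' log2 fold changes ran from −0.09 for *BMF* to 0.22 for *BCL2L1* (SE 0.25 and 0.11), and the lowest unadjusted p was that of *BCL2L1* (0.0529, edgeR's quasi-likelihood test). The median over the members was 0.08. These differences did not pass the test, and how small an effect of dox could have been detected was not computed.

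The interaction asks whether the difference between the lines depends on the dox label. It was fitted over all 16 libraries. *BCL2L1*, *BAK1* and *BIK* had a lower NAA40-KD to SCR ratio in the libraries labelled (+dox) than in those labelled (−dox), and 0 members had a called difference in the other direction. Of the 14392 genes tested 4.31% were called higher and 4.91% lower, in all 9.22%. The log2 difference was −0.64 for *BCL2L1* (SE 0.16, adjusted p = 0.0181, edgeR), −0.94 for *BAK1* (SE 0.25, adjusted p = 0.0264, edgeR) and −0.84 for *BIK* (SE 0.20, adjusted p = 0.0137, edgeR). *BMF* had the largest interaction, −1.16 (SE 0.36), and was just outside the threshold (adjusted p = 0.0508, edgeR).

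Without NAA40-KD (−dox) replicate 4 these differences were −0.59 for *BCL2L1*, −0.69 for *BAK1*, −0.74 for *BIK* and −1.11 for *BMF*, and all 4 were called lower (adjusted p = 0.00175, 0.00215, 0.00245 and 0.0275, edgeR), in a fit where 11.9% of the 14302 genes tested were called higher and 12.3% lower. Over all alternatives the adjusted p of *BMF* ran from 0.0246 to 0.108, that of *BCL2L1* from 0.000663 to 0.182, that of *BAK1* from 0.000874 to 0.0585 and that of *BIK* from 0.00136 to 0.0818. *BAK1* lost its call when SCR (+dox) replicate 3 or 4, SCR (−dox) replicate 1 or 3, or NAA40-KD (+dox) replicate 1, 3 or 4 was left out. For *MCL1*, *BCL2L11*, *BID*, *BCL2L12*, *BAD* and *BCL2* the interaction did not pass.

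The other genes of the family were described beside the members. Of 13 such genes 9 passed the filter, while *BCL2A1*, *BCL2L10*, *BCL2L14* and *BCL2L15* did not. In the libraries labelled (−dox) 0 of the 9 were called by edgeR, beside 6.42% of all genes tested. *BBC3*, which encodes the p53-induced BH3-only protein PUMA, was at 47.4, 47.0, 46.7 and 141 CPM in NAA40-KD (−dox) against 28.9, 44.9, 27.8 and 28.1 CPM in SCR (−dox). Its groups did not overlap, and NAA40-KD (−dox) replicate 4 and SCR (−dox) replicate 2 lay far above their group mates. Its log2 difference was 1.14 (SE 0.39, adjusted p = 0.117, edgeR) with replicate 4 and 0.54 (SE 0.14, adjusted p = 0.00955, edgeR) without it.

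Without that library, 4 of the 9 genes were called higher and 1 lower in the same comparison, beside 17.1% and 19.4% of all genes tested. *PMAIP1*, which encodes the BH3-only protein NOXA, a partner of MCL1, was higher by 0.48 on the log2 scale, *BCL2L2* (BCL-W, anti-apoptotic) by 0.30 and *BCL2L13* by 0.27. *BOK*, an effector relative, fell by 0.72. *BAX*, the second main effector, was at 57.3, 50.1, 61.8 and 124 CPM against 54.8, 54.4, 48.3 and 54.3 CPM, and its log2 difference was 0.48 (SE 0.28, adjusted p = 0.332, edgeR) with replicate 4 and 0.09 (adjusted p = 0.50, edgeR) without it. *BAX* was thus not distinguishable from SCR (−dox) in replicates 1 to 3, where *BAK1* was higher; the difference between the 2 genes was not tested. *HRK*, *BNIP3* and *BNIP3L* did not pass in either fit.

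In the libraries labelled (+dox) 0 of the 9 other family genes were called higher and 4 lower, beside 10.9% and 13.7% of all genes tested. *BBC3* was at 30.1, 27.8, 20.0 and 21.1 CPM in NAA40-KD (+dox) against 35.0, 39.9, 38.7 and 43.8 CPM in SCR (+dox), without overlap (log2 fold change −0.68, SE 0.13, adjusted p = 0.000921, edgeR). *BNIP3L* fell by 0.53, *PMAIP1* by 0.38 and *BCL2L13* by 0.25 on the log2 scale (adjusted p = 0.00687, 0.0208 and 0.0407, edgeR). Within the knockdown line *BBC3* was the only one of the 9 called with all 8 libraries, at a log2 difference of −1.52 (SE 0.39, adjusted p = 0.042, edgeR). That fit called 10.2% of all genes tested. The interaction of *BBC3*, −1.79 (SE 0.43, adjusted p = 0.0161, edgeR), and that of *BCL2L13*, −0.48 (SE 0.15, adjusted p = 0.0474, edgeR), were called lower. The interaction was called lower for 4.91% of all genes tested. In the control line 0 of the 9 and 0% of all genes tested were called.

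Without NAA40-KD (−dox) replicate 4 the calls of the other family genes within the knockdown line rose to 1 higher and 5 lower, beside 25.8% and 26.6% of all genes tested. The log2 difference of *BBC3* was then −0.94, and *PMAIP1* (−0.70), *BNIP3L* (−0.52), *BCL2L13* (−0.48) and *BCL2L2* (−0.27) were lower as well, while *BOK* was higher (0.61). In the interaction without this library, where 11.9% of all genes tested were called higher and 12.3% lower, 1 of the 9 was higher, *BOK* (0.55), and 5 were lower, *BBC3* (−1.22), *PMAIP1* (−0.87), *BNIP3L* (−0.63), *BCL2L13* (−0.53) and *BCL2L2* (−0.38).

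Genes that act before or after the BCL2 family were counted in the same fits. With all 8 libraries labelled (−dox), a fit that called 6.42% of all genes tested, 0 of 15 genes of the apoptosome and caspases were called. Of 5 measured inhibitor of apoptosis genes 1 was lower, *BIRC5* (survivin, also a mitotic protein), at a log2 difference of −1.17 (SE 0.22, adjusted p = 0.0165, edgeR). Of 10 death receptor genes 1 was lower, *TNFRSF10B*, a receptor of the ligand TRAIL (−0.71, SE 0.17, adjusted p = 0.0421, edgeR). Of 24 measured genes whose proteins bind, modify or degrade BCL2 family proteins, or control their genes, 2 were higher. *SFN*, a 14-3-3 protein that can retain BAX and BAD in the cytosol, was higher by 1.19 (SE 0.29, adjusted p = 0.0402, edgeR), and *PIM1*, a kinase that phosphorylates BAD, by 1.10 (SE 0.16, adjusted p = 0.00616, edgeR) on the log2 scale.

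These counts changed without NAA40-KD (−dox) replicate 4, in the fit that called 17.1% of all genes tested higher and 19.4% lower. Of the 15 apoptosome and caspase genes 2 were then higher and 4 lower, among them the apoptosome scaffold gene *APAF1* (log2 fold change 0.67) and the cytochrome c gene *CYCS* (−0.44). Of the 5 inhibitor of apoptosis genes 3 were higher and 1 lower, with *BIRC5* at −1.29, *BIRC3* at 0.78 and *XIAP*, whose protein inhibits caspases directly, at 0.31. Of the 10 death receptor genes 1 was higher and 3 lower, with *TNFRSF10B* at −0.79, *FAS* at −0.54 and the decoy receptor gene *TNFRSF10D* at −0.34. Of the 24 regulators 5 were higher and 3 lower, led by *PIM1* (1.01), *SFN* (0.79) and *FBXW7* (0.56), which encodes a ubiquitin ligase subunit that targets MCL1. These gene lists were not refitted without each of the other libraries.

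In the libraries labelled (+dox), *BIRC5* and *TNFRSF10B* were lower as well, by log2 fold changes of −0.94 (SE 0.11) and −1.08 (SE 0.085) (adjusted p = 9.05e-06 and 8.83e-08, edgeR). Of the 15 apoptosome and caspase genes 2 were higher and 2 lower, among them the initiator *CASP10* (−1.06, SE 0.12), the effector caspase gene *CASP6* (−0.50, SE 0.13) and the nuclease gene *DFFB* (0.47, SE 0.11). Of 5 inhibitor of apoptosis genes 0 were higher and 2 lower, the other being *BIRC2* (−0.33, SE 0.11), and of 10 death receptor genes 0 were higher and 2 lower, the other being the adaptor *TRADD* (−0.43, SE 0.15). Of the 24 regulators 3 were higher and 3 lower, the largest being *PIM2* (−0.66, SE 0.12), *YWHAB* (−0.55, SE 0.098) and *PIM1* (0.40, SE 0.099). These shares stood around the 24.5% of all genes called in this comparison.

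Within the knockdown line 1 of the 15 apoptosome and caspase genes was called, *CASP10* (log2 fold change −0.66, SE 0.16, adjusted p = 0.0304, edgeR), and 3 of the 24 regulators, *SFN* (−1.25, SE 0.28), *PIM2* (−0.67, SE 0.17) and *PIM1* (−0.63, SE 0.13), all lower in the libraries labelled (+dox). Of the 5 inhibitor of apoptosis genes and the 10 death receptor genes 0 were called by edgeR with all 8 libraries. This fit called 10.2% of all genes tested, and the interaction 9.22%. In the interaction *CASP10* (−0.94, SE 0.22), *SFN* (−1.37, SE 0.32), *PIM1* (−0.70, SE 0.17) and *PIM2* (−0.70, SE 0.20) were lower and *FAS*, the receptor of FAS ligand, was higher (0.85, SE 0.26, adjusted p = 0.0483, edgeR). *PIM1* was thus higher in NAA40-KD than in SCR under both labels, and the difference was smaller in the libraries labelled (+dox).

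Without NAA40-KD (−dox) replicate 4, 4 of the 15 apoptosome and caspase genes were higher and 4 lower within the knockdown line, among them *CASP10* at −0.76 and *CYCS* at 0.50 on the log2 scale. Of the 5 inhibitor of apoptosis genes 1 was higher, *BIRC5* (0.33), and 3 were lower, *BIRC3* (−0.69), *BIRC2* (−0.64) and *XIAP* (−0.29). Of the 10 death receptor genes 2 were higher, *FAS* (0.46) and *TNFRSF10D* (0.26), and 0 lower. Of the 24 regulators 4 were higher and 11 lower, with *SFN* at −0.87, *PIM1* at −0.55 and *FBXW7* at −0.54. The shares of all genes called in this fit were the 25.8% and 26.6% given above. In the interaction without this library *CASP10* (−1.04), *SFN* (−0.99), *PIM1* (−0.63) and *PIM2* (−0.56) were again lower and *FAS* (0.66) higher. The calls numbered 4 of 15, 2 of 6, 1 of 10 and 5 of 24 in the lists of caspases, inhibitors of apoptosis, death receptors and regulators. Among all genes tested in that interaction fit, 11.9% were called higher and 12.3% lower.

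*BMF* had the widest range of group means among the members, 0.95 on the log2(CPM + 1) scale. Over all genes tested on the 16 libraries, *ABHD4* and *CYP4F3* were among those whose 4 group means, each centred on their average, were most like those of *BMF*, with a root mean square difference of 0.0238 and 0.0244. Like *BMF*, each had its highest group mean in NAA40-KD (−dox), at 4.84 for *ABHD4* and 3.53 for *CYP4F3* on the log2(CPM + 1) scale, with 2.55 for *BMF*. The match rests on 4 group means that share the same libraries, NAA40-KD (−dox) replicate 4 among them, and is a description only.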

How the data were processed

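The authors deposited raw counts, whole numbers of reads per gene from featureCounts after alignment with STAR, without normalization. The submitters' processing notes name limma and the builds hg38 and GRCm38, and the paper's methods name mm10. All 33937 identifiers are human Ensembl identifiers, of which 33811 were found in GENCODE release 29. Library kits differ between the paper's methods and the labels, neither of which gives batches. The members and lists were chosen with earlier results of these data known.

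Fold changes came from edgeR 4.0.16 under R 4.3.3 (TMM normalization, robust quasi-likelihood F test, two-sided, Benjamini-Hochberg adjustment over all genes tested), after a filter that kept genes above 1 CPM in 4 or more libraries. Each pairwise comparison used its own 8 libraries and the interaction all 16. Dividing the absolute log2 fold change by the root of F gave the SE. Intervals and tests cover the spread of 4 libraries per group, and total counts of 11065606 to 13855486 per library limit weakly expressed genes. Levels per kb used the union of annotated exons. The code was tested on simulated data.

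Genes named are the 10 members, *NAA40*, the other measured family genes, up to 3 called genes of each further list per comparison with the largest change, and the 3 genes most like *BMF*. Some genes that this rule names are not reported here. Genes of the marker lists are named where they were at or under 1 CPM. *KRT20*, the other epithelial markers above 1 CPM and *COL1A1* were added after their values were seen. Alternatives were library-size normalization, DESeq2 1.42.0, limma-voom (limma 3.58.1), no filter, CPM >1 in every library, one fit over all 16 libraries, a replicate block, each library left out in turn and an adjusted p under 0.01. After the data were seen, a GC content offset per library (lowess, span 0.3) was added.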

Additional observations from a re-analysis of the deposited data

Results flagged for a closer look

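Members and the measured other genes of the family, together with *NAA40*, were checked for single libraries far from the other 3 of their group (Dixon's criterion at the 95% level). Of 80 sets of 4 libraries 11 had such a library, and chance alone gives about 1 in 20. In NAA40-KD (−dox) replicate 4, *BAD* at 16.9 CPM, *BCL2L12* at 88.7 CPM, *BAX* at 124 CPM and *BBC3* at 141 CPM lay above their group mates, and *MCL1* at 245 CPM lay below them. *BMF* was low in NAA40-KD (−dox) replicate 3, at 3.43 CPM, which was still above every SCR (−dox) library. Of the other family genes, *BAX* at 48.3 CPM was low in SCR (−dox) replicate 3, and in SCR (−dox) replicate 2 *BBC3* at 44.9 CPM was high and *BNIP3L* at 57.4 CPM low. *BCL2L13* at 101 CPM was high in SCR (+dox) replicate 1, and *BNIP3* at 33.6 CPM high in NAA40-KD (+dox) replicate 1.

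The difference between the lines depended on the dox label by edgeR's interaction test for 5 genes of the family. This test called 9.22% of all genes tested. The log2 interaction was −0.64 for *BCL2L1* (adjusted p = 0.0181), −0.94 for *BAK1* (adjusted p = 0.0264), −0.84 for *BIK* (adjusted p = 0.0137), −1.79 for *BBC3* (adjusted p = 0.0161) and −0.48 for *BCL2L13* (adjusted p = 0.0474). Each of these has NAA40-KD (−dox) replicate 4 among its 16 libraries, and the values without it are −0.59, −0.69, −0.74, −1.22 and −0.53.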

How the results depend on the processing

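Of 698 recomputed log2 fold changes of single members, 31 changed sign. None of these was a called value in the fits reported, and 1 was called after the change, *BAD* in the libraries labelled (−dox) without NAA40-KD (−dox) replicate 4. The number of members called changed more. In the libraries labelled (−dox) it was 2, and 0 at an adjusted p under 0.01, 1 without the filter on low counts, 5 in a fit over all 16 libraries, 4 with the GC content offset and 0 to 5 over the fits without 1 library. In those labelled (+dox) it was 3, and 0 at an adjusted p under 0.01, 0 in the fit over all 16 libraries and 0 to 4 without 1 library. Within the knockdown line it was 3, and 0 at an adjusted p under 0.01 and 0 to 7 without 1 library. In the interaction it was 3, and 0 at an adjusted p under 0.01, 1 without the filter and 2 to 4 without 1 library. In the control line it was 0 under every alternative. The fit over all 16 libraries called 20.5% of all genes tested in the libraries labelled (−dox) and 6.71% in those labelled (+dox). The GC content offset called 36.0% in those labelled (−dox). Shares of all genes are not given here for an adjusted p under 0.01 or without the filter. Of the fits without 1 library, they are given only for those without NAA40-KD (−dox) replicate 4. The counts therefore do not show whether the members changed more than other genes. The cause of these changes was not tested.

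Whether the replicate numbers pair the libraries was not settled. The correlation of deviations from the group mean, for libraries with the same number, ranged from −0.51 to 0.17 in those labelled (−dox). It ranged from −0.05 to 0.23 in those labelled (+dox) and from −0.30 to 0.07 in the control line. Within the knockdown line all 4 were positive, from 0.04 to 0.30, with 1 under 0.1. The deviations in NAA40-KD (−dox) include that of replicate 4, which stood apart, so the correlations with that group cannot decide the pairing. With a replicate block the members called were 0 in the libraries labelled (−dox), where 0.590% of all genes tested were called, 4 in those labelled (+dox), where 29.3% were, 2 within the knockdown line (5.61%), 0 in the control line (0%) and 4 in the interaction (8.46%).

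Sign changes in the libraries labelled (−dox) were as follows. *BCL2L11* was at −0.0087 with limma-voom, −0.0030 without the filter and −0.0072 with the block, and between −0.076 and 0.19 without 1 library. *BID* was between −0.10 and 0.13 over the alternatives, the lowest without NAA40-KD (−dox) replicate 4, and at −0.0027 without SCR (−dox) replicate 3. *BAD* was between −0.55 and 0.38 without 1 library, at −0.098 with limma-voom, −0.074 with the block, −0.26 with the GC content offset and −0.55 without NAA40-KD (−dox) replicate 4. In those labelled (+dox), *BCL2L1* was at 0.0056 with library-size normalization and 0.041 with the GC content offset. Without 1 library *BCL2L1* ranged from −0.031 to 0.026, *BCL2* from −0.27 to 0.053, *BMF* from −0.21 to 0.10, *BID* from −0.022 to 0.090 and *BCL2L12* from −0.19 to 0.0060. Within the knockdown line *BAD* was between −0.72 and 0.19, the highest without NAA40-KD (−dox) replicate 4. The *BID* interaction was at 0.020 with library-size normalization, 0.0012 with limma-voom, 0.015 without the filter and −0.095 to 0.11 without 1 library. *BCL2*, with 2 to 23 counts, passed the filter only in part of these fits.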
